A study of Drosophila melanogaster
Mus musculus with 21 samples.

Results

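The genes described here are 8 members of the T-box family of transcription factors, Tbx1, Tbx2, Tbx4, Tbx5, Tbx15, Tbx18, Tbx20 and Tbx21, in mouse embryonic stem cells that lost a Polycomb complex. They were taken by symbol from 19397 gene symbols in each auxin table, hold 10 of 20633 entries, and were reduced to the entry with the most untreated reads per symbol. Nuclear RNA was sequenced from 21 libraries in 7 groups of 3. The PRC1deg cells (E14 Rosa26::Tir1; Ring1A-/-; AID-Ring1B) were given 500 µM auxin (indole-3-acetic acid) for 2, 4, 8 or 24 h, or left untreated. The PRC2deg cells (E14 Pcgf2-HaloTag; dTAG-Suz12) were given 100 nM dTAG-13 for 2 h, or left untreated. Every PRC1deg group, the untreated one included, carries the TIR1 receptor at Rosa26, lacks RING1A and has a degron on RING1B. Every PRC2deg group carries a HaloTag on PCGF2 and a degron on SUZ12. Drosophila SG4 cells were mixed into each sample before extraction as a spike-in.

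T-box factors share a DNA-binding domain, the T-box, and act as activators or repressors in the tissues that make heart, limb, pharynx and skeleton. Polycomb repressive complex 1 places ubiquitin on histone H2A through its catalytic subunits RING1A and RING1B, and complex 2 methylates histone H3 and needs its subunit SUZ12 for that. In embryonic stem cells both complexes sit at CpG-rich promoters of developmental regulators, which are kept silent or nearly so. Nuclear RNA holds unspliced transcripts, so it follows transcription more closely than total RNA does. Of the 8 genes, Tbx21 stands outside heart and limb: it encodes T-bet, a lymphocyte factor.

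The authors deposited 1 log2 fold change and 1 adjusted p per entry and comparison, and 1 mean level of the 3 untreated libraries. No value per library, SD or standard error comes with them, so the spread between replicates enters only through the adjusted p, and how deeply each library was sequenced is unknown. The labels do not say whether the 3 replicates were separate cultures, and the p-values then measure only the spread between these samples. In the auxin comparisons, log2 fold changes of genes with hardly any reads appear pulled toward 0, by a method not stated. Pln, listed at 0 in untreated cells, had values between -0.0022 and 0.024 in the authors' deposited tables. Values near 0 of such genes do not show that they stayed unchanged, and folds given here need not be plain ratios of reads. Called means here a fold above 1.5 together with an adjusted p below 0.05. The untreated means sum to 30450536 normalised reads in PRC1deg cells and 29474239 in PRC2deg cells. Markers of embryonic stem cells were high in the authors' deposited table: the 7 measured ones had untreated levels of 129 to 3585 normalised reads per kilobase in PRC1deg cells. The 14 heart muscle genes summed to 122 per kilobase there, with Actc1 and Pln listed at 0, and the 6 fibroblast markers to 6.55, with Dcn and Lum listed at 0. No cells without a degron were given auxin in the tables used here, so an effect of auxin itself and one of losing RING1B cannot be told apart. The sample index in the labels starts anew at 24 h, and whatever that stands for and the longer time cannot be told apart either.

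All 8 genes were little transcribed before treatment. Their untreated levels per kilobase of gene span lay below the median of all symbols, 12.3 normalised reads per kilobase in PRC1deg cells and 10.7 in PRC2deg cells in the authors' deposited tables. In PRC1deg cells Tbx2 had 3.38, Tbx15 3.12, Tbx4 2.88, Tbx20 1.44, Tbx21 1.17, Tbx5 0.643, Tbx18 0.602 and Tbx1 0.0530 normalised reads per kilobase in the authors' deposited table. At most 37.2% of all symbols stood below any of them. Without values per library no neighbours in that order can be told apart. Multiplied by length, these levels are 314 untreated reads for Tbx15, whose span is 100501 bases, 75.0 for Tbx4, 49.0 for Tbx20, 32.5 for Tbx5, 31.6 for Tbx2, 20.3 for Tbx21, 17.1 for Tbx18 and 0.475 for Tbx1. The fold of Tbx1 therefore rests on an untreated mean of less than 1 read, and its size is poorly fixed. In PRC2deg cells Tbx2 was again highest at 3.02 normalised reads per kilobase and Tbx5 lowest at 0.0300 in the authors' deposited table, with Tbx20 at 2.14, Tbx15 at 1.99, Tbx4 at 1.86, Tbx21 at 1.10, Tbx18 at 0.744 and Tbx1 at 0.224. The lines were normalised separately and their levels are not compared.

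**Figure D1:**
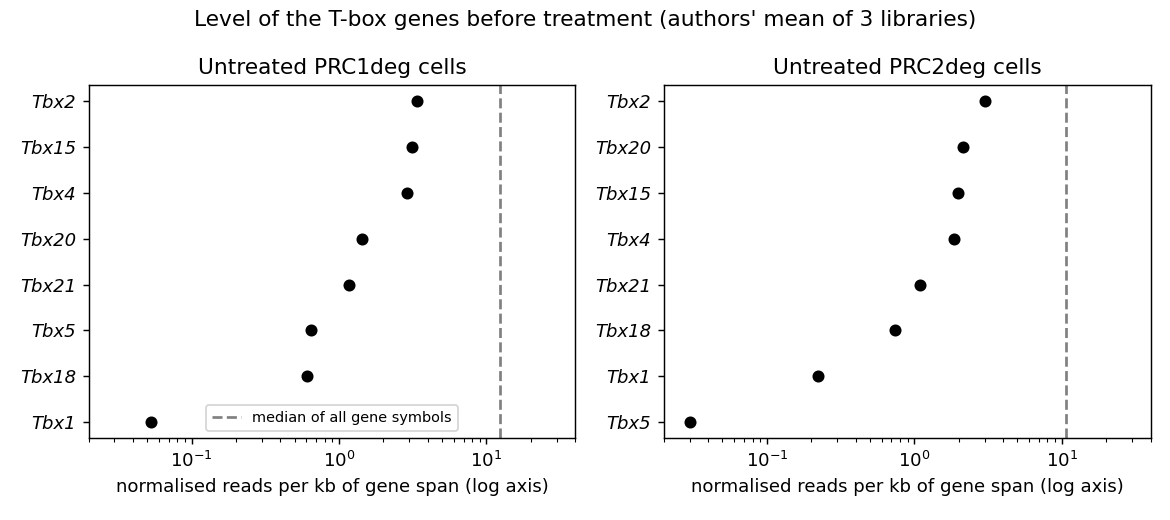
Untreated level of the 8 T-box genes in PRC1deg cells (left) and PRC2deg cells (right), as the authors' mean of 3 libraries in normalised reads per kilobase of gene span on a log axis. Every point lies left of the dashed median of all symbols, 12.3 and 10.7; Tbx1 is lowest in PRC1deg cells and Tbx5 in PRC2deg cells.

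The auxin comparisons asked how soon these genes responded to loss of RING1B. After 2 h, 5 of the 8 genes were called higher (Tbx1, Tbx15, Tbx18, Tbx20 and Tbx21) against 5.52% of all symbols with an adjusted p, and 0 were lower against 0.250%. After 4 h 6 were higher, Tbx4 being added, against 16.0% of all symbols, and 0 lower against 0.128%. After 8 h all 8 were higher, now with Tbx2 and Tbx5, against 25.5%, and 0 lower against 0.0808%. After 24 h 7 were higher, all but Tbx2, against 11.4%, and 0 lower against 0.602%. The median log2 fold change of the 8 genes was 1.59, 2.41, 2.74 and 2.27 at 2, 4, 8 and 24 h, beside 0.11, 0.32, 0.44 and 0.19 over all symbols. In bulk RNA, more cells that transcribe a gene and more RNA per cell cannot be told apart. The 4 auxin comparisons share the same 3 untreated libraries, so the times are not independent of each other.

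**Figure D2:**
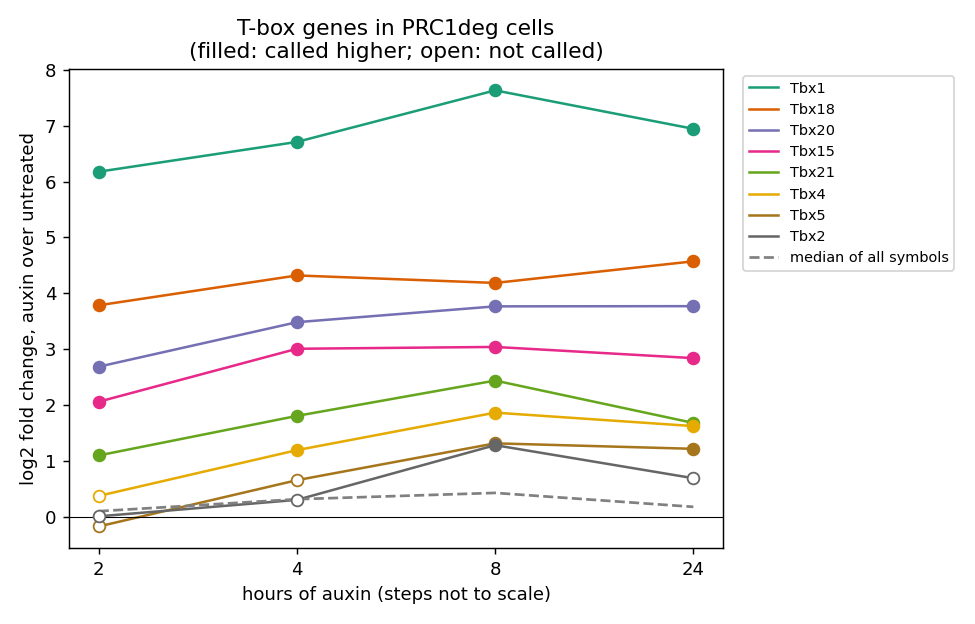
Log2 fold change of each T-box gene in PRC1deg cells after 2, 4, 8 and 24 h of auxin over untreated cells, 1 line per gene, with the median of all symbols dashed. Filled points were called higher and open points were not; Tbx1 stands highest at every time, from 6.18 to 7.63, while Tbx2, Tbx4 and Tbx5 are open at 2 h.

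The largest fold changes belonged to genes of the Tbx1 subfamily, which shape pharynx, heart, somites and skin. Tbx1, the regulator of the pharyngeal arches and cardiac outflow tract that is lost in DiGeorge syndrome, had log2 fold changes of 6.18, 6.71, 7.63 and 6.94 at 2, 4, 8 and 24 h in the authors' deposited tables. Its adjusted p by DESeq2 lay between 2.59e-12 at 2 h and 2.84e-19 at 8 h, and at 2 h its fold change had rank 10 from the top among 18724 symbols. Its 2 entries, 8968 and 5266 bases long, share the same 0.475 untreated reads and gave nearly equal log2 fold changes in the authors' deposited tables, 6.18 for the longer and 6.14 for the shorter after 2 h. They are 1 measurement and not 2.

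Tbx18 acts in the epicardium, the sinus node, the ureter and the anterior part of each somite. It had log2 fold changes of 3.79, 4.32, 4.19 and 4.57 at 2, 4, 8 and 24 h in the authors' deposited tables, a 13.8-fold to 23.8-fold rise. The adjusted p by DESeq2 was 8.59e-16 at 2 h and 2.69e-23 at 24 h. Of the 8 genes it had the smallest difference between 8 and 2 h, 0.40 on the log2 scale, so most of its change was already there at 2 h. Tbx20, needed for growth of the heart chambers, where it keeps Tbx2 repressed in mouse embryos, had log2 fold changes of 2.69, 3.49, 3.77 and 3.77 in the authors' deposited tables. Its adjusted p by DESeq2 was 1.64e-11 at 2 h and 2.24e-22 at 24 h. Its values at 8 and 24 h differed by 0.0034 on the log2 scale.

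Tbx15, a factor of the skeleton, of skeletal muscle and of the coat colour pattern, had log2 fold changes of 2.07, 3.01, 3.04 and 2.84 in the authors' deposited tables. The adjusted p by DESeq2 was 1.58e-08 at 2 h and 3.23e-18 at 8 h. With 314 untreated reads it is the best measured of the 8 genes. The step between 2 and 4 h was 0.95 and that between 4 and 8 h 0.03 on the log2 scale. No test of a difference between times can be made, as the authors' deposited tables hold no standard errors.

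Tbx2, Tbx4 and Tbx5, of the Tbx2 subfamily, were called later than these and had smaller fold changes. Tbx4, which drives hindlimb outgrowth and also acts in the lung, had log2 fold changes of 0.38, 1.20, 1.87 and 1.63 at 2, 4, 8 and 24 h in the authors' deposited tables. The first of these was not called (adjusted p by DESeq2 = 0.44), and the others were, with adjusted p = 0.0012, 1.75e-07 and 8.93e-06. The shorter of its 2 entries, 19333 against 26035 bases, gave 0.34, 1.12, 1.86 and 1.58 in the authors' deposited tables and the same calls.

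Tbx5, the forelimb and heart factor mutated in Holt-Oram syndrome, had log2 fold changes of -0.16, 0.66, 1.32 and 1.22 at 2, 4, 8 and 24 h in the authors' deposited tables. It was called at 8 h (adjusted p by DESeq2 = 0.0032) and 24 h (adjusted p = 0.0078), and not at 2 h (0.69) or 4 h (0.12). Tbx5 and Tbx18 began from nearly the same untreated level, 0.643 and 0.602 normalised reads per kilobase in the authors' deposited table. At 2 h their log2 fold changes were -0.16 and 3.79. Tbx2, a repressor that keeps the atrioventricular canal from forming chamber muscle, had log2 fold changes of 0.02, 0.31, 1.29 and 0.70 in the authors' deposited tables. Only the value at 8 h was called (adjusted p by DESeq2 = 0.0048, against 0.97, 0.42 and 0.14 at 2, 4 and 24 h). At 2 and 4 h it lay below 0.15 and 0.40, the medians over well-covered entries (at least 50 untreated reads).

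Tbx21, whose product T-bet directs type 1 helper T cells and natural killer cells, was called at each time. Its log2 fold changes were 1.11, 1.81, 2.44 and 1.69 at 2, 4, 8 and 24 h in the authors' deposited tables, with adjusted p by DESeq2 of 0.011, 4.70e-06, 2.83e-10 and 3.41e-05. It stood at every time below Tbx1, Tbx15, Tbx18 and Tbx20 and above Tbx2, Tbx4 and Tbx5. The order of the 8 genes by fold change was Tbx1, Tbx18, Tbx20, Tbx15, Tbx21, Tbx4, Tbx5, Tbx2 at 4, 8 and 24 h, and differed at 2 h in the last pair alone. For 6 of the 8 genes the highest value came at 8 h, and for Tbx18 and Tbx20 at 24 h. The median of all symbols was also highest at 8 h, at 0.44. With the median over well-covered entries subtracted, only Tbx1, Tbx2 and Tbx21 were highest at 8 h. Tbx4 then had 1.37 at 8 h and 1.39 at 24 h, and Tbx5 0.83 and 0.98. Tbx15 was then highest at 4 h, with 2.62 beside 2.55 at 8 h.

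Fold changes do not say how much RNA was reached. The untreated level multiplied by the 8 h fold gave 25.8 normalised reads per kilobase for Tbx15, 19.6 for Tbx20, 11.0 for Tbx18, 10.5 for Tbx4, 8.28 for Tbx2, 6.39 for Tbx21 and 1.61 for Tbx5, from the authors' deposited table. The untreated median of all symbols was 12.3. Tbx15 and Tbx20 thus passed that untreated median at 8 h, while Tbx18, Tbx4, Tbx2, Tbx21 and Tbx5 stayed below it at that time. With the 24 h fold the product of Tbx18 was 14.3, above 12.3. All symbols also rose at 8 h, with a median log2 fold change of 0.44, so 12.3 is not their median level after auxin. These products have no error, and Tbx1 is left out for its low untreated mean.

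Of the other 9 T-box genes, 2 of 9 with an adjusted p were called higher at 2 h. At 4, 8 and 24 h the counts were 3, 2 and 3 of 8, and 0 were lower. These shares were 22.2, 37.5, 25.0 and 37.5%, beside 5.52, 16.0, 25.5 and 11.4% of all symbols, so the share at 8 h was near that of all symbols. Their median log2 fold change was 0.07, 0.38, 0.41 and 0.15. T (brachyury) and Eomes, both regulators of the primitive streak, were higher at all 4 times, with 2.10, 2.87, 3.17 and 2.78 for T and 2.06, 3.09, 3.01 and 2.73 for Eomes in the authors' deposited tables. Tbx22, a palate gene with 2.59 untreated reads, was called at 4 h (1.62, adjusted p by DESeq2 = 0.049) and 24 h (1.73, adjusted p = 0.049) in the authors' deposited tables. The others, Tbx3, Tbx6, Tbx10, Tbx19, Tbr1 and Mga, were not called at any time. Tbx3 and Mga were already transcribed, at 672 and 265 normalised reads per kilobase in untreated PRC1deg cells in the authors' deposited table. Tbx3, the closest relative of Tbx2, had log2 fold changes of 0.19, 0.33, 0.11 and 0.32 in the authors' deposited tables.

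By subfamily, a grouping made after the values were seen, all 4 described genes of the Tbx1 subfamily were called at 2 h, with log2 fold changes of 2.07 to 6.18, while none of the 3 of the Tbx2 subfamily was, with -0.16 to 0.38. At 8 h the ranges were 3.04 to 7.63 and 1.29 to 1.87. Over whole subfamilies, 4 of 6 genes of the Tbx1 subfamily and 0 of 4 of the Tbx2 subfamily were called higher at 2 h. Tbx22, also of the Tbx1 subfamily, was not called at 2 h (0.04, adjusted p by DESeq2 = 0.85) or 8 h (0.69, adjusted p = 0.12). Tbx10, of the same subfamily, had 1.53 untreated reads and log2 fold changes between -0.12 and 0.08 in the authors' deposited tables. It was not called at 2 h (adjusted p by DESeq2 = 0.72). It has no adjusted p at 4, 8 and 24 h and was not tested there. With so few reads, its values near 0 do not show that it stayed unchanged.

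**Figure D3:**
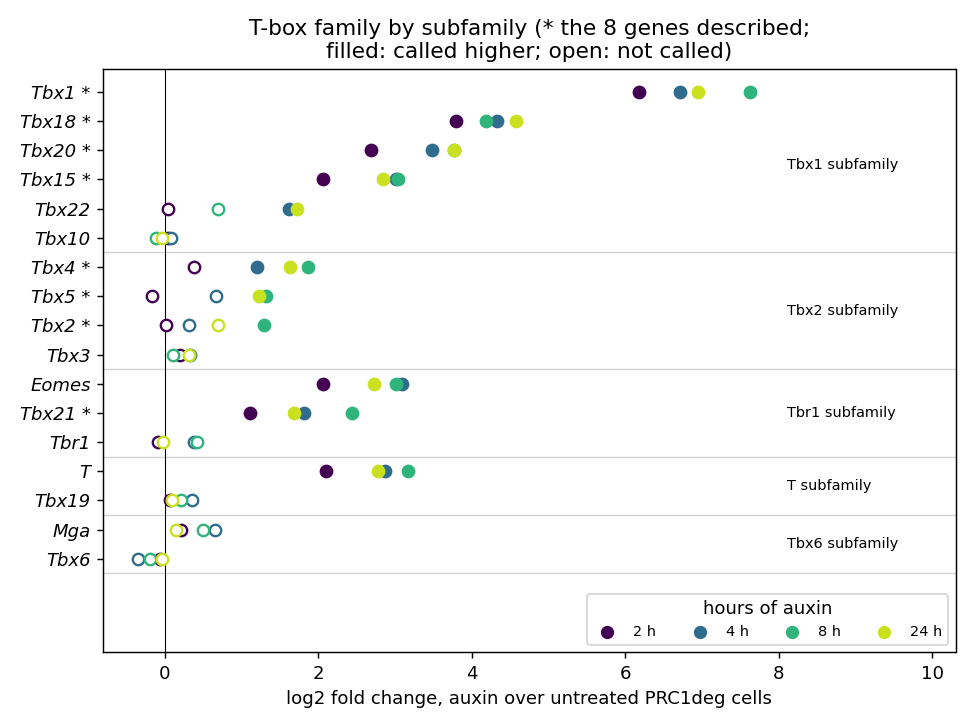
Log2 fold change after 2, 4, 8 and 24 h of auxin over untreated PRC1deg cells for all 17 T-box genes in 5 subfamilies, with an asterisk on the 8 genes described and filled points for those called higher. Tbx1, Tbx18, Tbx20, Tbx15, Eomes, Tbx21 and T have 4 filled points each, while Tbx3, Tbx6, Tbx10, Tbx19, Tbr1 and Mga have open points only.

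T-box factors work with other regulators, and these were described from lists of genes that share the same tissues. Of the heart regulators, 9 of 19 with an adjusted p were called higher at 2 h and 13 of 19 at 4 h. Later counts were 14 of 18 after 8 h and 11 of 19 after 24 h, or 8 and 6 among the 12 genes with 10 or more untreated reads, and 0 were lower. The shares were 47.4, 68.4, 77.8 and 57.9% at 2, 4, 8 and 24 h, beside 5.52, 16.0, 25.5 and 11.4% of all symbols. Gata6, a partner of T-box factors in heart precursors, had log2 fold changes of 2.03, 2.93, 3.41 and 4.16 in the authors' deposited tables. Shox2, needed for the sinus node, had 2.93, 4.52, 4.60 and 4.58 on 5.42 untreated reads in the authors' deposited tables. Mef2c had 2.62 at 4 h and Irx4, a gene of ventricular muscle, 3.49 at 8 h in the authors' deposited tables. Nkx2-5, a partner of TBX5 and TBX20, was called at 8 h (1.64, adjusted p by DESeq2 = 0.042) and 24 h (2.34, adjusted p = 0.022), and rests on 2.12 untreated reads. Hand2 was called at all 4 times but is listed at 0 in untreated cells, so no fold is given.

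Genes of the contractile apparatus and of heart muscle itself were called at shares near those of all symbols. Of these, 0 of 12 with an adjusted p by DESeq2 were higher at 2 h and 2 of 11 at 4 h. Later counts were 3 of 10 after 8 h, or 1 with fold changes centred on the general shift, and 1 of 11 after 24 h. The list's median log2 fold change of 0.01, 0.05, 0.27 and 0.10 lay below that of all symbols at each time. Over the 8 genes with 10 or more untreated reads it was 0.08, 0.16, 0.40 and 0.23, of which the value at 24 h lay above the 0.19 of all symbols. Among the called ones were the calcium release channel gene Ryr2 (log2 fold changes of 1.12 and 1.06 at 4 and 8 h) and the cardiac troponin gene Tnni3 (0.82 at 8 h) in the authors' deposited tables. Nppa, the atrial peptide gene that TBX5 activates, had 0.119 untreated reads, no adjusted p and log2 fold changes between -0.02 and -0.0028 in the authors' deposited tables. With so few reads these values do not show that Nppa stayed unchanged. Myh6 had -0.02, -0.02, 0.38 and 0.11 and was not called.

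Of the 27 genes of the limb list, 23 were called higher at 2 h, 25 at 4 h and 24 at both later times, with medians of 2.78, 3.80, 3.85 and 3.36. These shares were 85.2, 92.6, 88.9 and 88.9%, beside 5.52, 16.0, 25.5 and 11.4% of all symbols. Among the 13 genes with 10 or more untreated reads, 9, 11, 10 and 10 were called. Lmx1b, which sets the dorsal side of the limb, had log2 fold changes of 3.64, 3.60, 4.02 and 3.91, and Hoxd13, a digit gene, 3.68, 5.48, 5.26 and 4.95 in the authors' deposited tables. Fgf10, the limb bud growth factor that TBX4 and TBX5 activate, had 0.43, 1.55, 1.37 and 1.28 in the authors' deposited tables and was called from 4 h on. Pitx1, which lies upstream of Tbx4 in the hindlimb, was called at all 4 times with only 0.467 untreated reads.

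Of 15 pharyngeal regulators, 10, 12, 13 and 11 were called higher at 2, 4, 8 and 24 h, with medians of 1.56, 2.11, 2.50 and 2.19. Among the 10 of them with 10 or more untreated reads, 5, 7, 8 and 6 were called. Over the 15 genes the shares were 66.7, 80.0, 86.7 and 73.3%, beside 5.52, 16.0, 25.5 and 11.4% of all symbols. Wnt5a, a secreted signal, had log2 fold changes of 2.38, 3.73, 3.56 and 3.04 in the authors' deposited tables. Fgf8, a target of TBX1 in the pharynx, had 1.20, 1.66, 2.50 and 1.61 in the authors' deposited tables and 5.64 untreated reads. Hand2 stands in the heart and limb lists, and Fgf8 and Fgf10 in those of limb and pharynx, so these lists are not independent.

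The 17 lymphocyte genes, which T-bet acts on or which mark T cells, had untreated levels of 0 to 10.9 normalised reads per kilobase in PRC1deg cells. Lck at 10.9, Stat4 at 9.80 and Cd3e at 5.79 stood above Tbx2, the highest of the 8 T-box genes at 3.38. Neither Lck nor Stat4 nor Cd3e was called at any auxin time. Of the 17, 3 are listed at 0 in untreated PRC1deg cells, and 1 of 13 with an adjusted p was called higher at 2 h and 2 of 10 at each later time. These counts stand beside 5.52, 16.0, 25.5 and 11.4% of all symbols, and the share at 8 h lay below that of all symbols. With 10 or more untreated reads, 1 gene was called at each time, Runx3 (1.44, 1.90, 2.22 and 1.86) in the authors' deposited tables. The other called gene was Hlx, with 2.82 untreated reads, from 4 h on (2.56, 2.48 and 3.25) in the authors' deposited tables. Ifng, the main target of T-bet, is listed at 0 and has no fold change. Of the 4 Groucho corepressors, to which several T-box repressors bind, Tle3 was called at 8 h (0.74, adjusted p by DESeq2 = 0.014) in the authors' deposited table, and none at the other times. That call was lost when fold changes were centred on the general shift. Of the 6 fibroblast markers 2 had an adjusted p at 8 and 24 h, and 1 of these, Col1a2, was called at 8 h (1.01) and 24 h (1.09) in the authors' deposited tables. The call at 8 h was lost with centring. None of the 7 embryonic stem cell markers was called at any auxin time, and their median log2 fold change was 0.15, 0.25, 0.16 and 0.07.

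**Figure D4:**
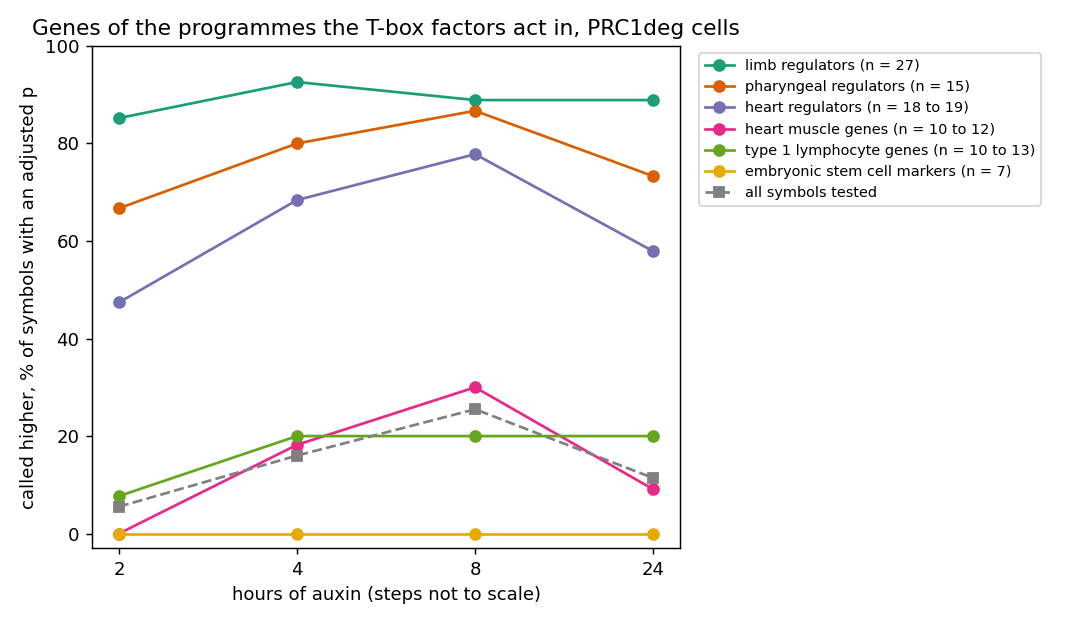
Share of genes called higher after 2, 4, 8 and 24 h of auxin, in percent of the symbols with an adjusted p, for 6 lists and for all symbols tested (dashed). Limb regulators lie between 85.2 and 92.6% and embryonic stem cell markers at 0%, while heart muscle genes run close to the dashed line, at 18.2% beside 16.0% after 4 h and 9.09% beside 11.4% after 24 h.

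For 7 of the genes, those with 10 or more untreated reads, the symbol with the most similar course was found by Euclidean distance over the 4 auxin log2 fold changes among 14762 such symbols. It was Prr16 for Tbx15, at a distance of 0.08, Kcna6 for Tbx4 (0.11) and Sertad1 for Tbx2 (0.20). It was Mpped1 for Tbx21 (0.22), Wnk4 for Tbx5 and Nsg1 for Tbx20 (both 0.25), and the homeobox gene Otx1 for Tbx18 (0.47). Otx1 had log2 fold changes of 3.51, 4.35, 4.54 and 4.45 in the authors' deposited tables, beside 3.79, 4.32, 4.19 and 4.57 for Tbx18. No T-box gene was the nearest of another.

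The PRC2deg comparison asked whether loss of SUZ12 changed the same genes within 2 h. Of the 8 genes 0 were called higher and 0 lower by DESeq2, beside 0% of all symbols in both directions. Every one had an adjusted p of 0.999956 and a log2 fold change within 5.73e-06 of 0 in the authors' deposited table, where the largest of all symbols was 0.000985. Plain ratios of read counts would not all lie so close to 0, so the deposited values appear shrunken, that is pulled toward 0. No symbol could then pass a fold of 1.5, and the 0 calls do not show that the genes stayed unchanged. Unadjusted p-values are not part of the data used here. With all fold changes of that table so near 0, their sizes are not set beside those of PRC1deg cells, and no test of PRC1deg against PRC2deg cells was made. Tbx1 and Tbx5 had 2.01 and 1.52 untreated reads in PRC2deg cells, the other 6 genes between 19.0 and 200.4, so the first pair was measured with few reads.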

How the data were processed

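The authors deposited 5 tables, each setting a treated group against untreated cells of its line, made from nuclear RNA with a Drosophila spike-in. The submitters' processing notes name DESeq2, STAR, Bowtie2, bedtools and SAMtools, and the builds mm10 and dm6, without versions. The log2 fold changes are treated over untreated, as deposited by the authors. Adjusted p-value columns came as the authors deposited them. The untreated level, headed as RPKM, was taken as a signal deposited by the authors, in normalised reads per kilobase, because level times length, divided by 1000, sums to 30450536 in PRC1deg cells, which no per-million scale gives. Lengths span whole genes with introns. The libraries were directional per the labels' protocols, but the strand setting of the counting is not stated there, so overlapping antisense RNA cannot be told apart.

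Calls needed an adjusted p under 0.05 and a fold change over 1.5, with p adjusted over each whole table by the authors' DESeq2. Per symbol the entry with the most untreated reads was used, and the longer on a tie. Of 9 gene lists, up to 4 genes with the smallest adjusted p per comparison were eligible for naming; others were named for their role after their values were seen, and not every eligible gene is reported. The 8 genes and the lists were chosen with earlier results of these data known, and no list was tested. Planned descriptions of promoters, proteins and neighbouring genes were not made here. The counting of calls was checked on simulated tables. Python 3.11.15, numpy 2.4.6, pandas 2.3.3 and matplotlib 3.10.9 were used. Alternatives were other thresholds, centring, a minimum of 10 reads and other entries.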

Additional observations from a re-analysis of the deposited data

How the results depend on the processing

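The count of the 8 genes called higher ranged over the alternatives from 4 to 5 at 2 h, 5 to 6 at 4 h, 7 to 8 at 8 h and 6 to 7 at 24 h of auxin, and stayed at 0 for dTAG-13 and for lower calls. The alternatives were no fold threshold, a fold over 2, an adjusted p under 0.01, centring on the median over well-covered entries (at least 50 untreated reads), a minimum of 10 untreated reads, and the longest or, chosen after seeing the data, the shortest entry per symbol. The minimum of 10 reads removes Tbx1, and an adjusted p under 0.01 removes Tbx21 at 2 h. Centring subtracts 0.15, 0.40, 0.50 and 0.24 at 2, 4, 8 and 24 h and left the adjusted p as deposited. It changed no call of the 8 genes, but turned the uncalled log2 fold changes of Tbx2 to -0.14 at 2 h and -0.084 at 4 h. Centring also moved the highest value of Tbx4 and Tbx5 from 8 to 24 h, and that of Tbx15 from 8 to 4 h. At 2 h of dTAG-13 it turned those of Tbx4 to 2.43e-07 and Tbx5 to 2.65e-07, sizes near 0. With 10 or more untreated reads, the lists lost the genes with few reads: limb regulators had 9, 11, 10 and 10 higher in place of 23, 25, 24 and 24, and pharyngeal regulators 5, 7, 8 and 6 in place of 10, 12, 13 and 11. Heart regulators had 8 at 8 h and 6 at 24 h in place of 14 and 11, and lymphocyte genes 1 in place of 2 from 4 h on. With centring, heart muscle genes had 1 higher at 8 h in place of 3, and Groucho corepressors and fibroblast markers 0 in place of 1. No paired analysis was possible because the tables hold no value per library, which also kept any replicate from being left out. Single fold changes of genes with under 10 untreated reads, Tbx1 among the 8, are limited by depth.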
